A study of Mus musculus with 8 samples.

Results

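Scx, Mkx and Tnmd, 3 genes that mark the cells of tendon and ligament, were followed in RNA from whole mouse knee joints. They were chosen by name as tendon genes, with no threshold on their values but with earlier results of these data known, and all 3 are among the 20681 rows of the deposited table. Poly-A libraries came from 4 joints labelled control and 4 labelled knockout for Loxl2, which encodes the collagen-crosslinking enzyme lysyl oxidase-like 2. All 8 libraries are described as from Acan-Cre;Loxl2 fl/fl mice, so that Loxl2 is to be deleted where the aggrecan promoter drives Cre, chiefly in cartilage and not in every cell of a joint. The library names call the control arm Vehicle, DMM and LOXL2wt and the other arm KO, DMM and LOXL2ko. What the knockout arm received in place of vehicle is not stated, and neither are strain background, age, sex, time after injury or pooling. DMM is not spelled out, but the title of the series names a post-traumatic injury, and the letters usually stand for destabilisation of the medial meniscus, in which a meniscal ligament is cut.

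Scleraxis (Scx) is a basic helix-loop-helix transcription factor that appears in the progenitors of tendons and ligaments and drives their matrix genes. Mohawk (Mkx) is a homeobox transcription factor that maintains the fibril-forming programme of the maturing tendon. Tenomodulin (Tnmd), a membrane glycoprotein of differentiated tendon cells related to chondromodulin of cartilage, lies downstream of Scx. All 3 are therefore used as identity genes of tendon and ligament, tissues that a whole knee holds next to muscle, bone, cartilage, synovium and fat.

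Facts of the whole series that touch the members were as follows. The libraries held 13991000 to 17411617 reads assigned to genes. Loxl2 itself, the targeted gene, was measured at 282, 349, 1135 and 311 normalised reads in control replicates 1 to 4. Knockout replicates 1 to 4 held 893, 1468, 960 and 1518. The targeted transcript was thus higher in the libraries labelled knockout (log2 difference 1.44, SE 0.40, limma adjusted p = 0.0294, exact permutation p = 0.0857), against the label, so groups are called by their labels here. Whether the labels of the arms were exchanged was not tested, and an exchange would turn the direction of every rise and fall given below. Whole-joint Loxl2 sums cartilage with cells outside it, which by the design are largely to keep the gene. Where Loxl2 was deleted was not measured here, and the cause of its rise was not tested. Whether the deletion leaves a transcript that is still counted was not tested either. Loxl2 lost that call with edgeR (adjusted p = 0.0669), with DESeq2 (adjusted p = 0.0659) and in limma fits that left out knockout replicate 2 or 4, or control replicate 1, 2 or 4 (adjusted p 0.0666 to 0.0849). Transcripts of 4 Y-linked genes were present in control replicates 3 and 4 and in knockout replicate 2, with summed values of 2352 to 2398, and were at 0 in the other 5 libraries. Sex is thus unbalanced between the arms, and values are given within each kind of library below. The defining cartilage genes were present, Acan with 221 ± 222 normalised reads across control libraries and 286 ± 93.3 across those labelled knockout (SD, n = 4 each).

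The 15 skeletal muscle markers summed to 2423700 to 2611000 in control libraries and 1179000 to 1648700 in libraries labelled knockout. The fibroblast markers summed to 27486 to 91996 and 58994 to 140840, and the macrophage markers to 1429 to 3300 and 4931 to 6858, in the same order. Muscle thus made up less, and macrophage transcripts more, of the libraries labelled knockout, without overlap. The part of this shift in the members' values was not tested, and in bulk RNA a change in the number of tendon cells and a change in RNA per cell cannot be told apart.

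The stretch before the annotated start of Tnmd is shown because Scx acts on this gene and binds E-boxes, whose letters are CANNTG on either strand. Beside it stands a stretch of Thbs4, a tendon matrix gene whose profile over the libraries was among the most like that of Tnmd. Only the Tnmd stretch was cut to end at the annotated start. The Thbs4 stretch holds the same bases of its promoter entry and need not end at a start. Both were taken from RefSeq sequence of GRCm38.p6 and are 222 bases long, at chrX:133850758-133850979 on the plus strand and chr13:92794847-92795068 on the minus strand. Capitals mark CANNTG.
Tnmd: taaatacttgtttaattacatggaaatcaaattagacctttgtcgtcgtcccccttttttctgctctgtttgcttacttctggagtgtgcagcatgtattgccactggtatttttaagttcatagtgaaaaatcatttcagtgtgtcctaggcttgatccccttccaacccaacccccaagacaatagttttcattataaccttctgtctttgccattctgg
Thbs4: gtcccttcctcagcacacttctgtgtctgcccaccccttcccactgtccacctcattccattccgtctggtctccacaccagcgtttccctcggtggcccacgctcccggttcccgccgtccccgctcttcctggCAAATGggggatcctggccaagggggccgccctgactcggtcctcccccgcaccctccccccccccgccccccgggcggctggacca
The Tnmd stretch held 0 matches to CANNTG and the Thbs4 stretch 1, which is CAAATG. Among all 32851 RefSeq promoters, cut to the same bases of each entry whatever the annotated start, 62.4% held a match. Of 17 promoters of tendon matrix genes, 12 did (70.6%). These counts describe the letters only, since E-boxes of distant enhancers lie outside such a stretch.

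Tnmd, the marker of differentiated tendon cells, was the member whose groups did not overlap. It lies on the X chromosome from 133850980 to 133865577 (plus strand, mm10), in 7 exons, with no other annotated gene over it. Control replicates 1 to 4 held 77.9, 69.6, 116 and 35.1 normalised Tnmd reads, and knockout replicates 1 to 4 held 146, 482, 129 and 155. Every library labelled knockout lay above every control library, and knockout replicate 2 lay far above the other 3 of its group. The means were 74.6 ± 33.2 and 228 ± 170 (SD, n = 4 each). Tnmd rose by a log2 difference of 1.48 with an SE of 0.45 (limma adjusted p = 0.0412, exact permutation p = 0.0286, the smallest possible), a fold of 2.80 with a 95% interval of 1.39 to 5.65. Over all 14949 genes tested, 23.2% were called by limma in either direction and 11.6% were called higher. A larger rise than that of Tnmd was seen in 2.66% of the tested genes.

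Both the call on Tnmd and the size of its rise depended on single libraries. Its limma adjusted p went above 0.05 when knockout replicate 1, 2 or 4, or when control replicate 1, 2 or 4, was left out, and then lay between 0.0574 and 0.0967. Leaving out knockout replicate 2 gave a log2 difference of 1.05 and leaving out control replicate 4 gave 1.17, and the other 4 of these fits gave 1.49 to 1.62. Among libraries without Y-linked reads, Tnmd had at most 77.9 normalised reads in 2 control libraries and at least 129 in 3 libraries labelled knockout (log2 difference 0.95). Among libraries with such reads it had at most 116 in 2 control libraries and 482 in the library labelled knockout (log2 difference 2.90). Both kinds thus showed the same direction for this X-linked gene, and with a term for Y-linked reads the difference was 1.64 (limma adjusted p = 0.0308).

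Mkx, the factor of tendon maturation, was the least abundant member. It lies on chromosome 18 from 6934518 to 7004780 (minus strand, mm10), and its last exon shares 201 bases with AC148004.2, a non-coding gene annotated on the same strand, so that its count depends on how such reads were assigned. Control replicates 1 to 4 held 36.8, 14.1, 43.9 and 21.9 normalised Mkx reads, and knockout replicates 1 to 4 held 67.8, 59.0, 40.2 and 81.9. The groups overlapped only through control replicate 3, which lay above knockout replicate 3. The means were 29.2 ± 13.6 and 62.2 ± 17.4 (SD, n = 4 each). Mkx rose by a log2 difference of 1.15 with an SE of 0.37 (limma adjusted p = 0.0491, exact permutation p = 0.0571), a fold of 2.21 with a 95% interval of 1.25 to 3.91. A larger rise was seen in 5.43% of the tested genes.

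The call on Mkx was at the edge of the threshold. It was lost with edgeR (adjusted p = 0.0581), at a pseudocount of 0.1 (limma adjusted p = 0.0502), with no filter on low values (0.0574) and with a term for Y-linked reads (0.0569). It was also lost when knockout replicate 1, 2 or 4, or when control replicate 2 or 4, was left out, with limma adjusted p-values of 0.0936 to 0.133. The counts behind it were small, with 14 to 47 reads in a control library and 37 to 93 in a library labelled knockout. For control replicate 2 the 14 reads give a 95% counting interval of 7.73 to 23.7 normalised reads, which covers counting error only. Among libraries without Y-linked reads, Mkx was higher in those labelled knockout (log2 difference 1.37, 2 against 3). It was also higher among those with such reads (0.90, 2 against 1). Neither kind showed overlap, but groups this small can easily separate by chance.

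Scx, the earliest of the 3 in tendon development, was not called. It lies on chromosome 15 from 76457452 to 76459458 (plus strand, mm10), wholly within an intron of Bop1, a ribosome biogenesis gene on the opposite strand. The 2 genes share 0 exon bases, but unspliced Bop1 RNA would cover Scx where counting ignored strand, and the use of strand is not stated. Bop1 itself had a log2 difference of -0.24 (limma adjusted p = 0.149). Control replicates 1 to 4 held 244, 229, 261 and 120 normalised Scx reads, and knockout replicates 1 to 4 held 222, 514, 338 and 356. Of the libraries labelled knockout, 1 (replicate 1) lay among the control libraries and the other 3 lay above them all, while control replicate 4 was lowest.

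The means of Scx were 214 ± 63.5 and 358 ± 120 (SD, n = 4 each). The log2 difference was 0.74 with an SE of 0.29 (exact permutation p = 0.114, limma adjusted p = 0.0905). The 95% interval of the fold ran from 1.07 to 2.61. A missed threshold does not show that Scx was unaltered, since DESeq2 called it (adjusted p = 0.0366), as did limma without knockout replicate 1 (adjusted p = 0.0471). Without control replicate 4 the log2 difference was 0.49. Within libraries lacking Y-linked reads the log2 difference of Scx was 0.34, and within those with such reads it was 1.53, from 1 library labelled knockout. The size of the Scx difference therefore varied between these kinds of library more than that of Mkx did, and this variation was not tested.

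**Figure D1:**
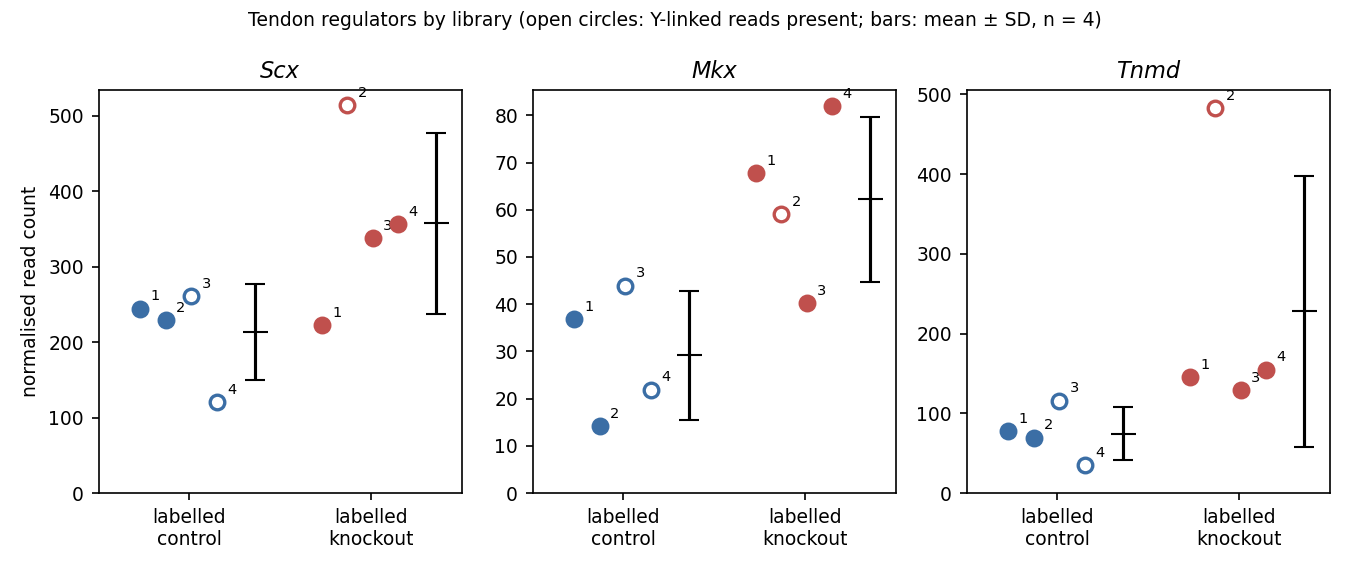
Normalised read counts of Scx, Mkx and Tnmd (vertical axes, linear, separate scales) in the 4 libraries labelled control and the 4 labelled knockout, numbered by replicate, with the mean and SD of each group as bars and libraries with Y-linked reads as open circles. The groups are separate for Tnmd, overlap by control replicate 3 and knockout replicate 3 for Mkx, and overlap by knockout replicate 1 for Scx, while knockout replicate 2 is the highest library for both Tnmd (482) and Scx (514).

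Of the 3 members, 2 were called higher by limma and 1 was not called, beside 11.6% of all tested genes called higher. The groups did not overlap for 1 of 3, beside 25.1% of all tested genes without overlap in either direction. The spread between libraries exceeded counting error for each member. For Scx the coefficient of variation was 29.7% over control libraries and 33.5% over those labelled knockout, where counting error alone would give 6.89% and 5.10%. For Tnmd it was 44.5% and 74.5%, against 11.6% and 6.31% from counting. For Mkx it was 46.6% and 28.0%, against 18.7% and 12.2%, so that counting took a larger part for this gene.

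Levels of different genes were compared per kilobase of annotated exon. Scx, with 2.007 kb of exon, had 106 ± 31.6 normalised reads per kb over control libraries and 178 ± 59.7 over those labelled knockout (SD, n = 4 each). Tnmd, with 1.353 kb, had 55.1 ± 24.5 and 169 ± 126 per kb, and Mkx, with 4.095 kb, had 7.13 ± 3.32 and 15.2 ± 4.26 per kb. Scx stood above Tnmd per kb in 7 of 8 libraries, and both stood above Mkx in 8 of 8. The order Scx, Tnmd, Mkx therefore held in the control group, while in the group labelled knockout the per-kb levels of Scx and Tnmd differed by less than their spread.

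Whether the members differed in how far they rose was tested on the log2 ratio of 2 members within a library, which does not depend on scaling. The log2 ratio of Tnmd to Scx was -1.64, -1.70, -1.16 and -1.75 in control replicates 1 to 4. It was -0.61, -0.09, -1.38 and -1.20 in knockout replicates 1 to 4. Tnmd was thus closest to Scx in knockout replicates 1 and 2, and control replicate 3 was above 2 libraries labelled knockout. The mean ratio was -1.56 ± 0.27 and -0.82 ± 0.59 (SD, n = 4 each), a difference of 0.75 (exact permutation p = 0.0857, adjusted over the 3 ratios 0.257). For Tnmd to Mkx the difference was 0.34 (exact permutation p = 0.600) and for Mkx to Scx it was 0.41 (exact permutation p = 0.457), each 0.600 when adjusted. None of the 3 ratios passed the threshold, before or after adjustment. The smallest possible exact p is 0.0286, so a single ratio could not pass once adjusted over the 3, however far apart its groups lay. The 3 ratios also depend on each other, being made from the same 3 genes. With 4 libraries a group the test therefore cannot decide whether the members rose by different amounts.

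**Figure D2:**
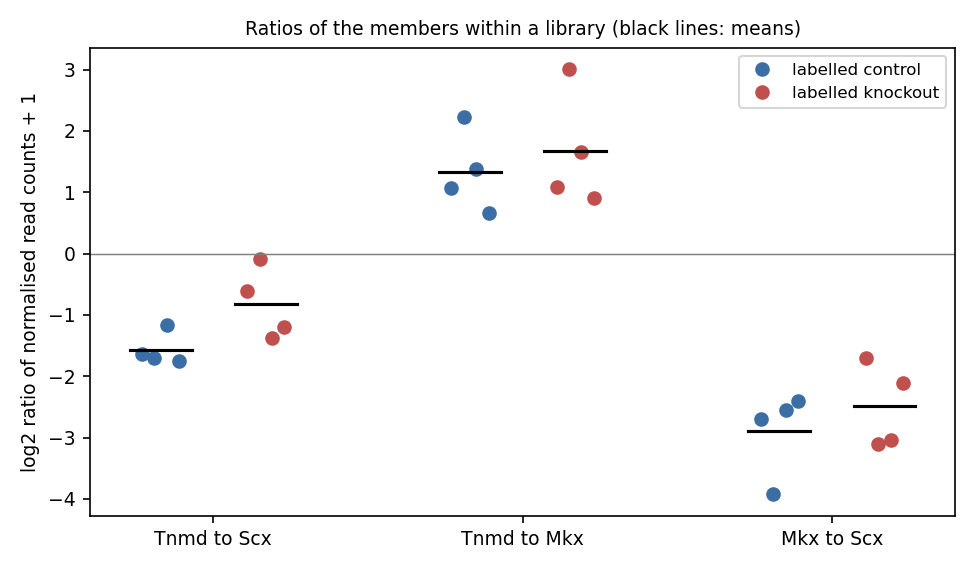
Log2 ratios of normalised read counts (after adding 1) between pairs of members within each library (vertical axis), with a point for each library labelled control or knockout and a black line at each group mean. The groups overlap for all 3 pairs, and the ratio of Tnmd to Scx has means of -1.56 and -0.82.

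The members did not deviate from their group means in the same libraries throughout. In knockout replicate 2, Tnmd lay 1.31 and Scx 0.58 above the group mean on the log2 scale, while Mkx lay 0.03 below it (-0.03). In control replicate 4, Tnmd (-0.95), Scx (-0.76) and Mkx (-0.27) all lay below the mean. Control replicate 2 was low for Mkx (-0.87) and near the mean for Scx (0.16) and Tnmd (0.02). In control replicate 3, all 3 members lay above the mean of their group, by 0.35 for Scx, 0.70 for Mkx and 0.75 for Tnmd.

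Likeness of profile was measured as the root mean square difference between centred log2 values over the 8 libraries, which share the group contrast and the composition of the joint. The genes nearest to Tnmd were Piezo2 (0.39), which encodes a mechanically gated ion channel, Pcdhb9 (0.43), Zfp991 (0.44), the chemokine gene Cxcl14 (0.44) and Thbs4 (0.44), which encodes the tendon matrix protein thrombospondin 4. The median over all tested genes was 1.06. Scx lay at 0.54 from Tnmd, and 59 tested genes (0.395%) were nearer to Tnmd than Scx was, while 746 (4.99%) were nearer than Mkx.

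The genes nearest to Mkx were Fat1 (0.16), an atypical cadherin gene, Ptges (0.17), a prostaglandin E synthase gene, Cers6 (0.17), C1ra (0.18) and Renbp (0.18), with a median over all tested genes of 0.82. The genes nearest to Scx were Tnfaip8l1 (0.19), Utp14b (0.19), Cyb561 (0.20), Ccdc114 (0.22) and Tchh (0.23), with a median of 0.65. Seen from Scx, 21.5% of tested genes were nearer than Tnmd and 46.0% nearer than Mkx. Profiles of smaller amplitude lie nearer to most genes on this measure, so distances are to be read against each member's own median.

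Most transcription factors that act with the members in tendon had a difference above 0, but few were called. Of the 9 reported here, all of them tested, 8 had a difference above 0, where the median over all tested genes was 0.00. By limma 2 were called higher and 7 were not called, beside 11.6% of all tested genes called higher and 11.6% called lower. The groups did not overlap for 4 of the 9, all higher, beside 25.1% of all tested genes without overlap in either direction. Egr1, a mechanically responsive zinc finger factor that induces Scx, rose from 371 ± 87.1 to 799 ± 276 (SD, n = 4 each), a log2 difference of 1.08 (SE 0.25, limma adjusted p = 0.0158), and was called in every setting run. Eya2, a transcriptional coactivator gene, rose from 64.4 ± 20.02 to 120 ± 23.1 (log2 difference 0.91, limma adjusted p = 0.0247).

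Eya2 lost its call when knockout replicate 1 or 2, or control replicate 1 or 2, was left out (limma adjusted p 0.0549 to 0.0679). Tgif1, a repressor of TGF-beta signalling, had a log2 difference of 0.38 (limma adjusted p = 0.0832), and Egr2 had 0.85 (0.0886). Tcf3 and Tcf12, which encode the E proteins that pair with Scx on DNA, had differences of 0.22 (limma adjusted p = 0.110) and 0.35 (0.156). Neither dimer partner was called by limma, and Scx itself, with a difference of 0.74, was not called either. The partners were not compared with Scx by a test.

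Among the signals that induce or restrain tendon fate, 15 of 16 genes matched a row, and 12 of these were abundant enough to test. Of the 12, limma called 4 higher and 1 lower and did not call 7, beside 11.6% of all tested genes called in each direction. TGF-beta is the main inducer of Scx. Tgfb1 rose from 439 ± 120 to 879 ± 278 (SD, n = 4 each; log2 difference 0.99, limma adjusted p = 0.0184), Tgfb3 from 1028 ± 66.7 to 1331 ± 95.1 (0.37, 0.0148) and the receptor gene Tgfbr1 from 575 ± 35.7 to 873 ± 175 (0.58, 0.0176). The receptor gene Tgfbr2 also rose (log2 difference 0.66, limma adjusted p = 0.0364). Tgfb2 and the signal transducer gene Smad3 had log2 differences of -0.02 (limma adjusted p = 0.907) and -0.08 (0.650).

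Mstn, which encodes myostatin, a muscle-derived growth inhibitor that also acts on tendon fibroblasts, fell from 616 ± 67.9 to 350 ± 98.2 (SD, n = 4 each; log2 difference -0.85, limma adjusted p = 0.0128), beside the lower sums of muscle markers given above. Tgfb3 and Mstn were called in every setting run. Tgfb1 lost its call when knockout replicate 4 or control replicate 2 or 4 was left out (limma adjusted p 0.0507 to 0.0544), Tgfbr1 when knockout replicate 4 or control replicate 2 was left out (0.0538 and 0.0503). Tgfbr2 lost it without any 1 of control replicates 1, 2 and 4 and knockout replicates 1, 2 and 4 (0.0621 to 0.1). The growth factor genes Gdf5, Gdf7 and Fgf4, which act on tendon and joint progenitors, were too low to test, with group means of at most 5.55 normalised reads.

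The matrix genes of tendon, many of which respond to Scx and Mkx, were mostly higher in the libraries labelled knockout. Of 24 tested, 15 were called higher by limma and 9 were not called, beside 11.6% of all tested genes called higher. All 24 differences were above 0, with a median of 1.19 beside 0.00 for all tested genes. Thbs2, a matricellular gene, rose from 571 ± 375 to 3955 ± 1049 (SD, n = 4 each; log2 difference 2.94, limma adjusted p = 0.00397). Col12a1, whose collagen coats tendon fibrils, rose from 853 ± 546 to 5615 ± 1768 (2.86, 0.00397), and Fmod, the gene of the fibril-binding proteoglycan fibromodulin, from 2707 ± 1090 to 7364 ± 993 (1.51, 0.00462). Col5a1, whose product sets fibril diameter, rose from 2368 ± 1544 to 8146 ± 1580 (1.96, 0.00724).

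Those 4 matrix genes were called in every setting run, as were Col11a1, Lum, Htra3 and Cilp2. Among 18 alternative settings, Col3a1 was called in 17, Col1a1 in 14, Col1a2 in 12, Dcn in 11, Col5a2 in 10 and Tnc in 9. Many of the list are also made by synovial and bone cells. Thbs4, shown above with its upstream sequence, rose from 2450 ± 871 to 5907 ± 3171 (log2 difference 1.16, limma adjusted p = 0.0474), with its call lost when knockout replicate 2 or 4, or control replicate 1, 2 or 4, was left out (0.0865 to 0.129). Bgn and Comp, the most abundant of those not called, had differences of 1.03 (limma adjusted p = 0.0678) and 0.91 (0.0501). The difference of Tnmd (1.48) and that of Mkx (1.15) thus lay near the middle of the matrix genes and that of Scx (0.74) in their lower part.

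Of 9 tested genes of the tendon sheath and of tendon progenitors, 2 were called higher by limma and 7 were not called, beside 11.6% of all tested genes called higher. S100a4, a calcium-binding protein gene of fibroblasts and immune cells, rose from 13.9 ± 3.43 to 40.9 ± 9.17 (SD, n = 4 each; log2 difference 1.495, limma adjusted p = 0.00792). Pdgfra, a receptor gene of many fibroblasts, rose from 442 ± 146 to 1075 ± 264 (1.31, 0.0105). Tppp3, which marks sheath stem cells, stood at 1960 ± 507 and 1998 ± 706 (log2 difference -0.02, limma adjusted p = 0.966), with a sign that changed in 7 of 18 settings. Prg4, the lubricin gene, stood at 15739 ± 9440 and 29779 ± 9013 (1.03, 0.0503).

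Nes (log2 difference -0.51, limma adjusted p = 0.0955) and Osr1 (0.78, 0.0971) were not called either. The 4 lists together had 54 tested genes reported here, of which 23 were called higher and 1 lower, beside 11.6% of all tested genes in each direction. Without control replicate 2 or knockout replicate 4, the number called higher was 13 in each case.

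**Figure D3:**
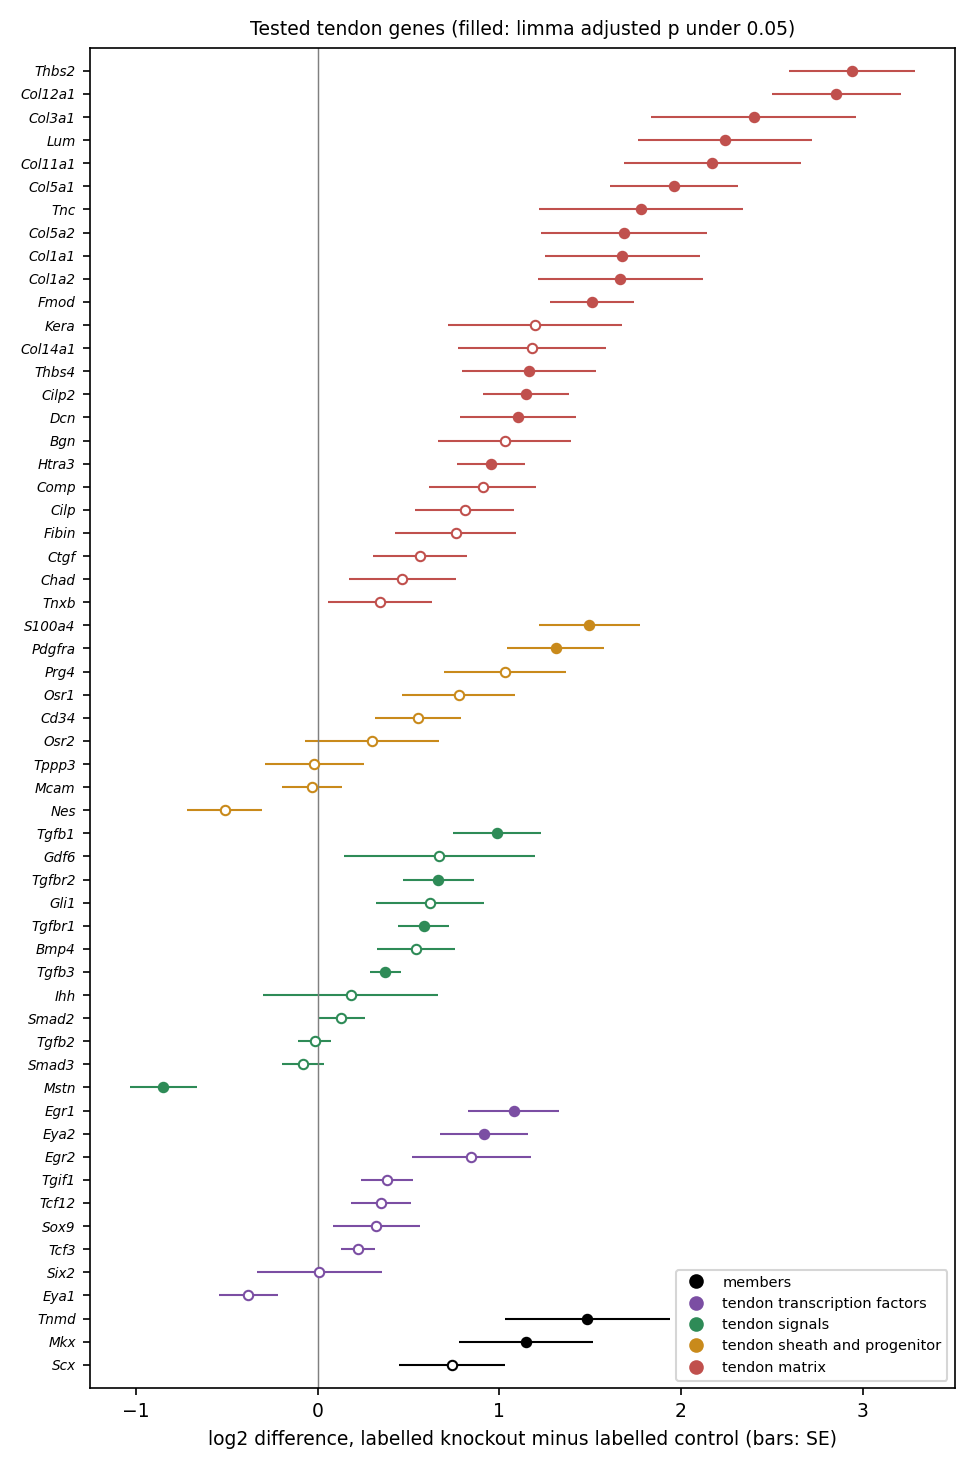
Log2 differences (horizontal axis, labelled knockout minus labelled control, bars are SE of the limma fit) of the 3 members and of the 54 tested genes reported here from the 4 tendon lists, coloured by list, with filled points for an adjusted p under 0.05. Matrix genes lie from 0.34 (Tnxb) to 2.94 (Thbs2), while transcription factors lie from -0.38 to 1.08 (Egr1), all below Mkx (1.15) and Tnmd (1.48).

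**Figure D4:**
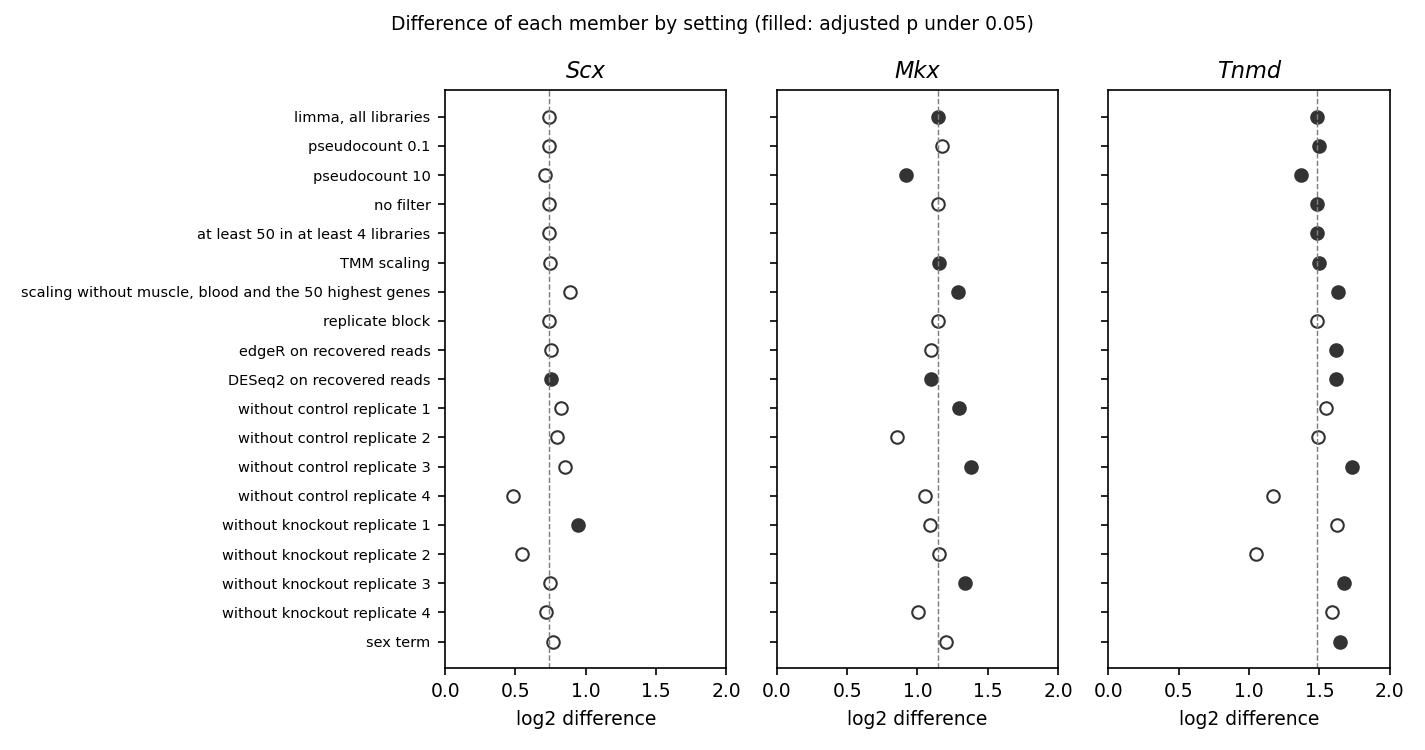
Log2 difference of Scx, Mkx and Tnmd (horizontal axes) in the fit with all libraries and under each alternative setting (rows), with filled points for an adjusted p under 0.05 and a dashed line at the value with all libraries. All points lie above 0, from 0.49 to 0.95 for Scx, 0.86 to 1.38 for Mkx and 1.05 to 1.73 for Tnmd, and Tnmd is called in 11 of 18 alternatives, Mkx in 7 of 17 and Scx in 2 of 18.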

How the data were processed

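The deposited values are a normalised signal, the read count of a gene divided by a size factor of its library. Per the series' design text and the submitters' processing notes, the authors aligned reads to mm10 with HISAT2, counted them with featureCounts and normalised with DESeq2. Versions, annotation and strand setting are not given in the sources used here. In each column 100% of values were whole multiples (within 0.01) of the smallest positive value, which returned the reads. Coordinates and exon lengths are from GENCODE M21 (GRCm38, which is mm10), to which 99.2% of names matched. Of the RefSeq promoters, Tnmd had an entry.

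Libraries were grouped by title. Genes reaching a value of 10 in 4 or more of the 8 libraries were tested by limma 3.58.1 (trend) on log2(value + 1), Benjamini-Hochberg adjusted over all genes tested, and called under 0.05. Fold changes are on that scale, which understates those of low genes. Exact two-sided permutation tests used the 70 assignments of libraries, with a smallest p of 0.0286. The labels do not say that libraries come from separate animals, so p-values measure the spread between these samples. edgeR 4.0.16 and DESeq2 1.42.0 were run on the recovered reads as alternatives. The tests were also run on simulated data with the same spread for every gene. These libraries differ from that setting, so the run does not vouch for the calls. Members and lists were chosen with earlier results of these data known. Named genes are the members, Loxl2, overlapping genes, the 5 genes most like each member, and from each tendon list the 4 of smallest p and the 2 most abundant not called. Tgfbr2, Thbs4, Egr2, Osr1, Gdf5, Gdf7, Fgf4, Tnxb and the other called matrix genes were named after their values were seen. So were the markers Acan, Cnmd, Hapln1, Lpl and Adipoq. A gene of the tendon transcription factor list is not reported here and was left out of the counts and figure of these lists. Of the 58 other genes on the tendon lists, 57 matched a row (Ccn2 as Ctgf).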

Additional observations from a re-analysis of the deposited data

Results flagged for a closer look

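A library far from the rest of its group was found in 2 of the 14 group-by-quantity sets checked, where chance alone gives about 1 in 20. Tnmd in the group labelled knockout was 482 normalised reads in replicate 2, a gap that made up 0.928 of the group's whole range. Loxl2 in the control group was 1135 normalised reads in replicate 3, a gap that made up 0.921 of the range.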

How the results depend on the processing

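Scx, Mkx and Tnmd kept a difference above 0 in every alternative run. Without each library in turn, the log2 difference ran from 0.49 to 0.95 for Scx, 0.86 to 1.38 for Mkx, 1.05 to 1.73 for Tnmd and 1.24 to 1.91 for Loxl2. Called genes then numbered 1751 to 3841 (831 to 1840 higher, 913 to 2001 lower), and tendon list genes 13 to 31 higher and 1 lower in each case. The ratio differences ran from 0.50 to 0.93 (Tnmd to Scx), -0.11 to 0.64 (Tnmd to Mkx, below 0 without knockout replicate 2) and 0.06 to 0.61 (Mkx to Scx). Mkx lost its call at 1.18 (pseudocount 0.1), 1.15 (no filter), 1.10 (edgeR) and 1.20 (sex term, chosen after seeing the data), and could not be fitted with at least 50 reads required. Scx gained a call at 0.75 (DESeq2). Loxl2 lost its call at 1.23 (edgeR) and 1.23 (DESeq2). The scaling without muscle, blood and the 50 highest genes called 2708 higher and 784 lower, with the median difference of all genes at 0.15. The cause was not tested.

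Deviations of same-numbered libraries from their group means had correlations across genes of 0.21, -0.12, -0.23 and -0.06. These values do not show a pairing by number, nor can they exclude a weak one. With the replicate number as a block, 2018 genes were called (1117 higher, 901 lower), with 16 tendon list genes higher and 1 lower in place of 23 and 1. Mkx (1.15, limma adjusted p = 0.0874), Tnmd (1.48, 0.0548) and Loxl2 (1.44, 0.0513) lost their calls. So did the tendon list genes Tgfb1 (limma adjusted p = 0.0573), Eya2 (0.0701), Tgfbr2 (0.0797), Thbs4 (0.0852), Col5a2 (0.0669), Dcn (0.0878) and Tnc (0.0659).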

Other observations

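Cnmd, the chondromodulin gene of cartilage and the relative of Tnmd, did not share its pattern. Control replicates 1 to 4 held 73.5, 83.8, 3.74 and 17.5 normalised Cnmd reads and knockout replicates 1 to 4 held 24.9, 16.2, 132 and 30.8, with a log2 difference of 0.44 (limma adjusted p = 0.760). Cnmd was highest in knockout replicate 3, the library of that group with the lowest Tnmd. Of the 9 cartilage markers tested, 1 was called higher by limma (Hapln1, log2 difference 1.28, adjusted p = 0.0165), beside 11.6% of all tested genes.

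Tnmd is also expressed by fat cells, and the joint holds a fat pad. Of the 8 adipocyte markers, 1 was called by limma, and it was lower (Lpl, log2 difference -0.69, adjusted p = 0.0246), beside 11.6% of all tested genes called lower, with a median log2 difference of -0.12. Adiponectin (Adipoq) stood at 139 ± 110 normalised reads over control libraries and 108 ± 28.0 over those labelled knockout (SD, n = 4 each). Of the 8 bone markers, 4 were called higher by limma, with a median of 1.62, and of the 8 fibroblast markers 4, with a median of 0.97, beside 11.6% of all tested genes called higher.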
